A study of Picea abies with 40 samples.

Results

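The step from zone 2 to zone 3 of the Norway spruce (Picea abies) seedling root was described with 10 of the 40 RNA sequencing libraries of the series, chosen by their labels as the 5 libraries of zone 3 and the 5 of zone 2. Zones 1 to 4 are whole root segments cut in sequence upwards from the tip, 3 of them 1 mm long and 1 of them 2 mm long, from seedlings kept on plates for roughly 2 days after germination. The first step, zone 2 against zone 1, used the 5 libraries of zone 1, and zone 4 gave another 5. The remaining 20 libraries were laser-captured regions, in which chosen cells are cut out of a tissue section with a laser, with 4 libraries each of stele 1, stele 2, stele 3, ground tissue and the QC area (named as in the labels). The labels give no genotype, strain or treatment for any group, and do not say whether replicates came from separate seedlings or from pools, so p-values set a difference against a spread between libraries that may be technical. The files do not pair their gene IDs with names, so genes appear by ID, no role is given to any of them, and the labelled tissues could not be checked against known markers.

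A growing root tip holds dividing cells close to the apex. Farther back the cells stop dividing and lengthen, and behind them they take on their final form, which in the stele, the central cylinder, includes the water- and sugar-conducting tissue. Ground tissue surrounds the stele, and the epidermis lies outside it. Consecutive segments along a root therefore sample cells of increasing age, and each whole segment mixes all tissues of its level. In such bulk segments, fewer cells of a type and less RNA per cell cannot be told apart.

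Total counts were 4.25 to 6.08 M in the zone 3 libraries and 3.53 to 5.77 M in the zone 2 libraries (M for 1000000 counts), and ran from 4.07 to 7.25 M in zones 1 and 4 and from 4.94 to 11.99 M in the captured libraries. All zone libraries were read in lane 3 of the sequencer, while captured libraries were split between lanes 7 and 8. The spread between replicates, as a biological coefficient of variation, was 16.0% over the zone libraries and 48.2% over the captured libraries. No 2 replicates of a group agreed within sampling noise.

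About as many genes rose as fell between zone 2 and zone 3, and with TMM scaling the larger changes were more often rises. Among 27767 tested genes, 14443 (52.0%) passed an adjusted p of 0.05 in edgeR's quasi-likelihood test, 7280 of them higher in zone 3 (26.2% of tested genes) and 7163 lower (25.8%). A change of at least 2-fold was reached by 3807 higher genes (13.7%) and 3166 lower genes (11.4%). At 4-fold the numbers were 1481 and 1048, and at 8-fold they were 725 and 457, so the higher side held 61.3% of the 8-fold changes against 54.6% of the 2-fold changes. The larger side at 2-fold changed with the scaling, and the 4-fold and 8-fold counts were not repeated with other scalings. When library totals replaced TMM factors, 3392 genes were higher and 3663 lower at 2-fold, and the median of all tested genes shifted to -0.11 on the log2 scale from -0.0090.

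The genes that passed with at least 2-fold are called zone 3-higher and zone 3-lower genes below. As a description of the contrast that chose them, the zone 3-higher genes carried 20.2%, 14.1%, 21.2%, 19.0% and 18.4% of all counts in zone 3 replicates 1 to 5, and 6.65%, 4.64%, 7.93%, 6.39% and 6.45% in zone 2 replicates 1 to 5. Every zone 3 library lay above every zone 2 library, and replicate 2 was the lowest and replicate 3 the highest in both zones. The zone 3-lower genes carried 3.65%, 5.29%, 3.49%, 3.82% and 3.85% of counts in zone 3 replicates 1 to 5, against 11.7%, 13.98%, 9.43%, 11.0% and 11.1% in zone 2 replicates 1 to 5, with replicate 2 now the highest in both zones. Zone 3 replicate 2 thus lay closest to zone 2 for both sets. Without it, 4198 genes were higher and 3444 lower at 2-fold.

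Both sets also differed between zones 1 and 4, which took no part in the contrast. The zone 3-higher genes held 2.54% ± 0.135 of counts in zone 1 and 21.8% ± 0.749 in zone 4 (SD, n = 5 each), so their share was lowest at the tip and in zone 4 was above the mean of zone 3. The zone 3-lower genes held 21.1% ± 0.141 in zone 1 and 3.48% ± 0.249 in zone 4, close to the 4.02% ± 0.724 of zone 3. A few abundant genes did not set these shares. Without the 10 most abundant genes of each set, the zone 3-higher share was 15.6% in zone 3 and 5.25% in zone 2, and the zone 3-lower share was 3.33% in zone 3 and 9.80% in zone 2.

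**Figure D1:**
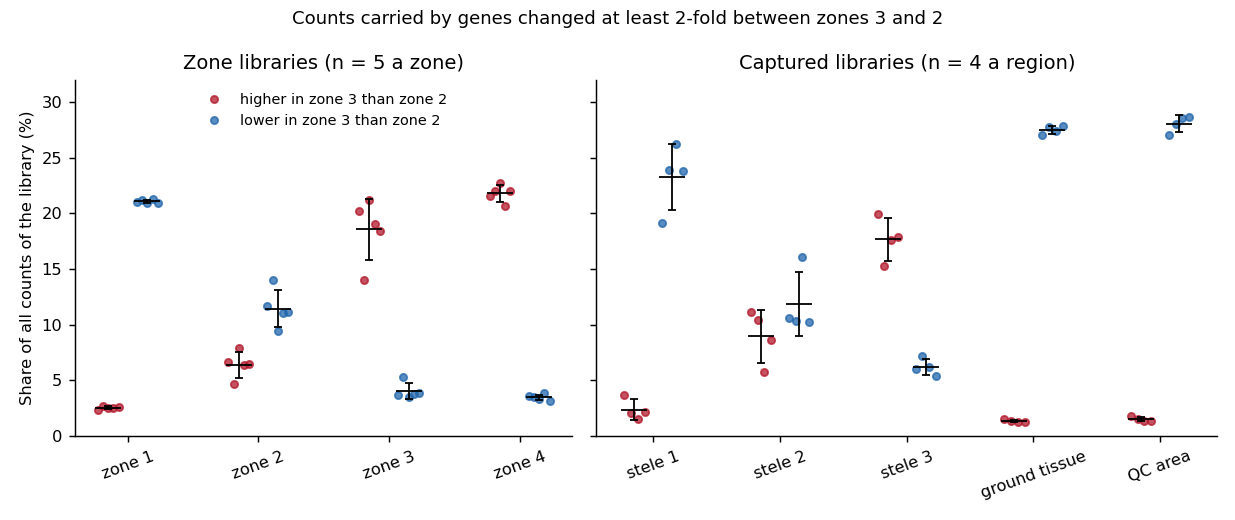
Share of all counts of a library, in percent, carried by genes at least 2-fold higher (red) or lower (blue) in zone 3 than in zone 2, with 1 point per library and the mean ± SD in black, for zone libraries (left, n = 5 a zone) and captured libraries (right, n = 4 a region). The zone 3-higher share reached 18.6% in zone 3 and 17.7% in stele 3, and the zone 3-lower share was greatest in the QC area (28.0%) and ground tissue (27.5%).

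The size of the change and the chance of calling it both depended on the level of the gene. Genes were split by their mean over zones 3 and 2 into 4 groups of equal size. In the lowest of these groups, up to 3.18 CPM (counts per 1000000 counts), 45.4% were called and the median standard error of the log2 fold change was 0.40. In the highest group, from 25.98 CPM upward, 63.8% were called with a median standard error of 0.11. Called genes changed by a median of 1.80 on the log2 scale in the lowest group and 0.64 in the highest. The low genes that were called were therefore mostly those with large changes. At 2-fold, 19.0% of the lowest group were higher and 21.1% lower, so falls outnumbered rises there. In the other groups rises outnumbered falls, with 10.7% higher and 6.22% lower in the highest. Near the 2-fold limit the calls were continuous, with 376 higher genes within 0.1 log2 units above it and 391 within 0.1 below it, and 397 lower genes just beyond it against 452 just short of it. Full gain or loss of a gene was rare at this depth. In all 5 zone 2 libraries 123 of the 7280 higher genes had no count, and 4 genes without a count there reached a mean of 10 CPM in zone 3. Of the 7163 lower genes, 40 had no count in any zone 3 library, and none of these had averaged 10 CPM in zone 2.

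Genes called at both steps had mostly changed in the same direction at each. Both steps use the zone 2 libraries, so an error in zone 2 enters both with opposite sign, and the counts below are given as the design fixes them, without a test of their overlap. The first step had 7799 rises in zone 2 (28.1%) and 7663 falls (27.6%). Of these rises, 47.3% rose again, 42.7% were not called at the second step and 10.1% fell. Of these falls, 59.4% fell again, 33.4% were not called at the second step and 7.24% rose. Of the 7280 genes that rose at the second step, 3686 (50.6%) had also risen at the first, 555 (7.62%) had fallen at the first and 3039 (41.7%) had not been called. Of the 7163 genes that fell at the second step, 4548 (63.5%) had also fallen at the first, 785 (11.0%) had risen and 1830 (25.5%) had not been called. A larger share of the falls than of the rises was thus already called at the first step, and reversals were the smallest class in both directions. A gene not called at the first step may still have changed there.

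**Figure D2:**
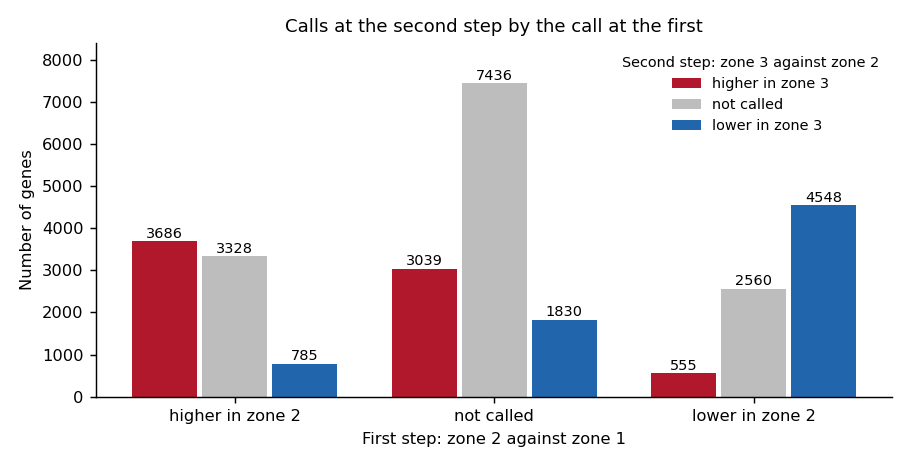
Number of genes called higher, not called or called lower in zone 3 against zone 2 (bar colours), grouped by the call of the same genes in zone 2 against zone 1 (horizontal axis). The tallest bars beside the genes called at neither step are the 4548 genes that fell at both steps and the 3686 that rose at both.

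The classes also differed in level and in what followed. Genes that rose at both steps had a median of 31 CPM in zone 3 and 14.2 CPM in zone 2, with median log2 changes of 1.36 at the first step, 0.99 at the second and -0.055 at the third, zone 4 against zone 3. Genes that fell at both steps had a median of 4.82 CPM in zone 3 and 11.3 CPM in zone 2, with median log2 changes of -0.96, -1.10 and -0.0013. The median change of both of these classes was thus small at the third step, where the median of all tested genes was 0.037. A small median can hold rises and falls alike, so single genes may still have changed there. Genes that rose at the second step with no call at the first had medians of 8.38 CPM in zone 3 and 3.43 CPM in zone 2, where all tested genes had 8.44 and 8.28 CPM, and their median log2 change at the third step was 0.53. Genes that rose and then fell were the most abundant of the reversing genes, with a median of 29.4 CPM in zone 3 and 43.4 CPM in zone 2, and changed by medians of 0.65, -0.57 and -0.35. Genes that fell and then rose changed by medians of -0.87, 0.91 and 0.56, so that their median in zone 4, 19.97 CPM, was above the 12.8 CPM of zone 3. Consecutive steps share a zone, which by itself pushes such medians towards opposite signs.

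Where a second step differed in size from the first, rises were mostly smaller and falls mostly larger. The difference of both steps, tested gene by gene in the same fit, was positive for 1935 of all tested genes (6.97%) and negative for 4079 (14.7%). A smaller rise and a larger fall are both negative differences, so both leans follow the commoner sign among all tested genes. Among the 3686 genes that rose at both steps, the second rise was smaller than the first for 859 and larger for 63, while 2764 did not pass. Among the 4548 genes that fell at both steps, the second fall was larger for 489 and smaller for 84, while 3975 did not pass. A miss here does not show that both steps were alike. The order of these counts stood under each scaling tried, although the small ones moved, with 72 to 127 falls that became smaller. Without zone 3 replicate 2, 134 rises and 638 falls became larger. Without zone 2 replicate 2, 312 falls became larger, and without zone 2 replicate 4 or zone 2 replicate 5 only 32 and 28 rises did. Without zone 2 replicate 3, 4 or 5, 43, 45 and 52 falls became smaller.

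For each of the 4 classes with a call at both steps, the gene with the largest second change is given, among genes with at least 2-fold at each step, a mean of at least 10 CPM over zones 1 to 3 and no overlap between zones 3 and 2. Of the 682 genes so filtered that rose at both steps, MA_12626g0010 rose most. It had 179, 29.5, 287, 135 and 114 CPM in zone 3 replicates 1 to 5, and 2.80, 0.36, 4.46, 0.88 and 0 CPM in zone 2 replicates 1 to 5. Every zone 3 library lay far above zone 2, with replicate 2 again the lowest of zone 3 and replicate 3 the highest in both zones. The log2 fold change was 6.44 ± 0.55 (SE, edgeR adjusted p = 2.62e-09), or 7.42 without zone 2 replicate 3, which held 26 of the 42 counts of zone 2. Zone 4 ranged from 235 to 452 CPM, higher than zone 3 by 1.18 ± 0.36 on the log2 scale (SE, edgeR adjusted p = 0.00871). Its first step rested on 42 counts in zone 2 and 1 in zone 1, which is a ratio of 45.4 (95% counting interval from 7.71 to 1834, edgeR adjusted p = 0.0274). That call was lost without zone 2 replicate 3, zone 1 replicate 1 or zone 1 replicate 3, with adjusted p of 0.141, 0.0576 and 0.0512, and its fitted log2 fold change, 4.79, was 3.83 without zone 2 replicate 3 and 6.10 without zone 1 replicate 2.

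MA_18731g0010 fell at the first step and rose most at the second among 17 such genes. Its levels were 38.1, 11.5, 57.1, 33.7 and 26.2 CPM in zone 3 replicates 1 to 5, against 4.20, 2.87, 5.15, 4.61 and 3.42 CPM in zone 2 replicates 1 to 5. The zones did not overlap, and replicate 2 was the lowest and replicate 3 the highest in each. The log2 fold change was 3.05 ± 0.30 (SE, edgeR adjusted p = 1.65e-08). Zone 1 held 17.9 to 26 CPM, so that the first step was -2.43 ± 0.30 on the log2 scale (SE, edgeR adjusted p = 4.5e-07). Zone 4 held 102 to 144 CPM, above all zone 3 libraries.

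MA_73622g0010 fell most at the second step among the 644 genes that fell at both. It had no count in any of the 5 zone 3 libraries, against 7.28, 8.96, 3.95, 4.61 and 4.37 CPM in zone 2 replicates 1 to 5. This was at least 45.6-fold lower in zone 3, set against a floor of 3 counts over the zone (edgeR adjusted p = 4.88e-09). Zone 1 held 39.7 to 47.9 CPM, and the first step was -2.84 ± 0.19 on the log2 scale (SE, edgeR adjusted p = 2.79e-10). A low level of 0.42 to 1.29 CPM was present in each zone 4 library. With 22 counts over its libraries, zone 4 was at least 6.71-fold higher than zone 3, set against the same floor (edgeR adjusted p = 0.000177).

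MA_140859g0010 rose at the first step and fell most at the second among 24 such genes. It had 4.92, 12.7, 2.23, 2.31 and 5.42 CPM in zone 3 replicates 1 to 5, against 29.9, 39.95, 28.2, 28.7 and 31.6 CPM in zone 2 replicates 1 to 5. Replicate 2 was the highest in both zones and the zones did not overlap. The log2 fold change was -2.56 ± 0.30 (SE, edgeR adjusted p = 2.5e-07), after a rise of 2.40 ± 0.29 (SE, edgeR adjusted p = 2.89e-07) above the 3.04 to 9.03 CPM of zone 1. In zone 4 only 3 counts were left, in 3 libraries.

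**Figure D3:**
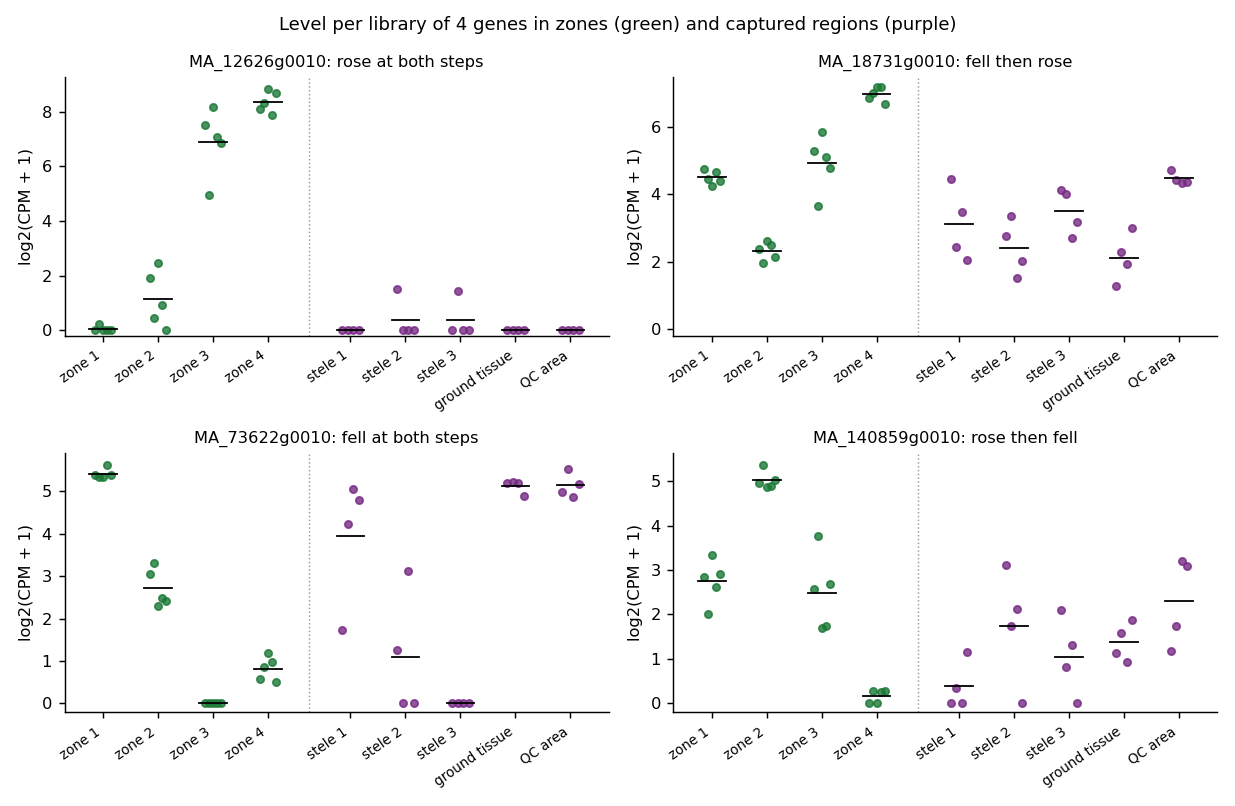
Level of the 4 named genes as log2(CPM + 1) in each zone library (green) and captured library (purple), with 1 point per library and the group mean as a line. MA_12626g0010 reached 287 CPM in a zone 3 library and had a count in only 2 of the 20 captured libraries, and MA_73622g0010 had no count in zone 3 or in stele 3.

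In the captured regions, whose libraries took no part in choosing them, the zone 3-higher genes held a larger share of the counts in steles 2 and 3 than in the other regions, and the zone 3-lower genes a smaller one. The zone 3-higher genes carried 3.70%, 2.08%, 1.57% and 2.13% of all counts in stele 1 replicates 1 to 4, then 11.1%, 10.4%, 5.72% and 8.61% in stele 2 and 19.9%, 15.3%, 17.6% and 17.8% in stele 3. They carried 1.24% to 1.52% in ground tissue and 1.37% to 1.78% in the QC area. The 3 steles did not overlap with each other, and 3 of 4 stele 1 libraries and all of steles 2 and 3 lay above every ground tissue and QC area library. The zone 3-lower genes ran the other way, with 19.2%, 23.8%, 26.3% and 23.8% in stele 1 replicates 1 to 4, then 10.6%, 10.4%, 16.1% and 10.3% in stele 2 and 6.02%, 7.22%, 6.19% and 5.43% in stele 3. Their share was 27.0% to 27.9% in ground tissue and 27.0% to 28.6% in the QC area, above all stele libraries. Equal numbers of a zone and a stele are not said in the labels to mark the same place along the root. The library names of ground tissue and the QC area carry the number 1, as those of stele 1 do. Region and number therefore cannot be told apart where these regions are set beside steles 2 and 3.

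The 2 sets were not equally well represented in the captured table. Of the 3166 zone 3-lower genes, 3015 (95.2%) passed the filter on low counts there, but of the 3807 zone 3-higher genes only 2305 (60.5%) did, against 85.5% of all 27767 genes tested in the zones. No captured library held a count for 301 zone 3-higher genes (7.91%) and 13 zone 3-lower genes (0.41%), against 532 of all zone genes (1.92%). The same gap was present at higher levels. Among the 1789 zone 3-higher genes with at least 10 CPM in either zone, 408 (22.8%) failed the filter of the captured table and 87 had no count in it. Among the 1163 zone 3-lower genes at that level, 20 (1.72%) failed and 1 had no count, and among all 14182 zone genes at that level 5.42% failed. A count of 0 over the 170 M captured counts allows at most 0.0177 CPM (3 counts, counting error only). MA_12626g0010 failed the filter, with 16 counts in stele 2 replicate 1, 9 in stele 3 replicate 2 and none in the other 18 captured libraries.

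Between steles with consecutive numbers, the members that passed the filter changed mostly in 1 direction. A gene that passes that filter through a single region has to differ between regions, so the shares are given beside those of all tested genes and describe the tested members only. For stele 2 against stele 1, 1114 of 2305 zone 3-higher genes (48.3%) were higher and 31 were lower, against 12.4% and 8.97% of all tested genes, with a median log2 fold change of 2.10 against -0.051 for all genes. Of 3015 zone 3-lower genes, 1137 (37.7%) were lower in stele 2 and 30 were higher, with a median of -1.19. For stele 3 against stele 2, 427 zone 3-higher genes (18.5%) were higher and 8 were lower, against 3.85% and 9.16% of all tested genes, and the medians were 1.20 for the members and -0.11 for all genes. Of the zone 3-lower genes 1066 (35.4%) were lower in stele 3 and 4 were higher, with a median of -1.30.

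All stele 2 libraries came from lane 7, so these comparisons were repeated there. With 4 stele 2 and 2 stele 1 libraries, 11.8% of zone 3-higher genes were higher in stele 2 and 0.999% of zone 3-lower genes were lower, against 2.00% and 0.177% of all genes, and the medians stayed at 2.08 and -0.93. With 3 stele 3 and 4 stele 2 libraries, 2.34% of zone 3-higher genes were higher in stele 3 and 3.70% of zone 3-lower genes were lower, against 0.351% and 0.478% of all genes, with medians of 1.12 and -1.31. Fewer libraries were behind these calls. With only the compared steles in the fit, 20.6% of zone 3-lower genes were lower in stele 2 than in stele 1 and 13.5% were lower in stele 3 than in stele 2, beside 4.02% and 2.32% of all tested genes in those fits. The share of zone 3-lower genes that were lower in stele 2 was 24.4% without stele 1 replicate 3. The share of zone 3-higher genes that were higher in stele 3 was 9.62% without stele 2 replicate 3, 10.1% without stele 3 replicate 1 and 11.7% without stele 3 replicate 3. Here and below, the share of all tested genes was not counted in fits without a library. A change among the members therefore cannot be told apart there from a change in all calls.

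The contrasts of stele 1 were weaker and less even. Against ground tissue, stele 1 had higher calls for 362 zone 3-higher genes (15.7%) and lower calls for 26, where all tested genes gave 4.78% and 1.25%, and the median was 0.54 against 0.028 for all genes. For the zone 3-lower genes the counts were 51 higher and 80 lower, with a median of -0.29. Against the QC area, stele 1 had higher calls for 383 zone 3-higher genes (16.6%) and lower calls for 28. All tested genes gave 8.42% and 1.03%. Of the zone 3-lower genes, 83 (2.75%) had a higher call and 49 (1.63%) a lower one. Their median was -0.31, against 0.054 for all genes. Stele 1 replicate 1, which came from lane 7 with replicate 2, carried the most zone 3-higher counts of this region. Within lane 8, with stele 1 replicates 3 and 4 only, the median of the zone 3-higher genes was 0.051 against the QC area and 0.14 against ground tissue, so the size seen over both lanes did not hold there. Within lane 7, with 2 stele 1 libraries and a lone ground tissue library assumed to vary like the other groups, it was 0.39. Among zone 3-higher genes at 4-fold, 8.89% were higher in stele 1 than in the QC area, near the 8.42% of all tested genes, and 9.91% were higher than in ground tissue. Without stele 1 replicate 1, 9.66% were higher in stele 1 than in ground tissue and 10.8% higher than in the QC area. The share higher than in the QC area was 10.6% or 10.97% when QC area replicate 3 or replicate 4 was left out. The zone 3-lower genes called lower in stele 1 made up 1.63% against the QC area, or 0.591% to 1.02% when any QC area library or stele 1 replicate 1, 2 or 4 was left out. Against ground tissue they made up 2.65%, or 1.51% to 1.71% without ground tissue replicate 2 or stele 1 replicate 1, 2 or 4.

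Ground tissue against the QC area separated the sets least. Higher calls in ground tissue went to 90 zone 3-higher genes (3.90%) and lower calls to 116 (5.03%), against 3.23% and 1.51% of all tested genes, with a median of 0. Of the zone 3-lower genes 90 (2.99%) were higher and 27 (0.896%) lower, both under the shares of all tested genes, with a median of -0.024. In lane 8 alone (3 libraries of ground tissue, 4 of the QC area), 3.90% and 5.37% of zone 3-higher genes were higher and lower, beside 3.51% and 2.57% of all tested genes. These shares were small in a table whose replicates spread widely, and the zone 3-higher share called higher was 2.35% without ground tissue replicate 1 and 2.43%, 2.52% and 2.60% without QC area replicates 1, 2 and 3. The zone 3-lower share called lower, 0.896%, ranged from 0.428% to 0.560% without QC area replicate 1 or 2 or ground tissue replicate 1, 2 or 3. With only these 2 regions in the fit, higher calls in ground tissue made up 8.77% of the zone 3-higher genes and lower calls 15.4%, beside 5.45% and 4.22% of all tested genes.

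**Figure D4:**
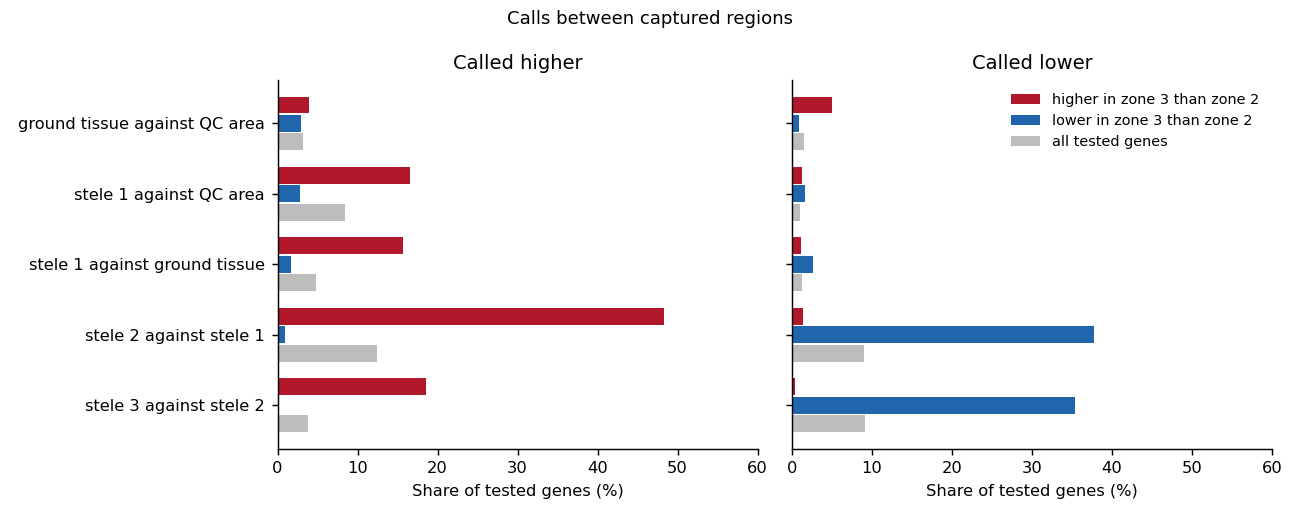
Share of genes called higher (left) or lower (right), in percent of the genes tested in the captured table, for 5 comparisons between captured regions, among zone 3-higher genes (red), zone 3-lower genes (blue) and all tested genes (grey). The longest bars are the 48.3% of zone 3-higher genes that were higher in stele 2 than in stele 1 and the 37.7% of zone 3-lower genes that were lower there.

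The region of the highest captured mean differed between the classes. Of the 3086 genes that rose at both steps and were tested there, the mean was highest in stele 3 for 78.1% and in stele 2 for 16.0%, against 31.5% and 15.4% of all genes tested in both tables. Of the 1883 tested genes that rose at the second step with no call at the first, 64.2% were highest in stele 3. Of the 408 tested genes that fell and then rose, 40.0% were highest in stele 3 and 38.0% in the QC area. The 4410 tested genes that fell at both steps were highest in the QC area for 47.7%, in ground tissue for 38.3% and in stele 1 for 12.1%, against 22.6%, 19.5% and 11.0% of all genes. The 765 tested genes that rose and then fell were highest in stele 2 for 54.0%, in ground tissue for 18.0% and in the QC area for 1.83%. The region of the highest mean was taken without a test, and in this table it can rest on 1 library. All QC area libraries came from lane 8 and all stele 2 libraries from lane 7, so region and lane cannot be told apart between them.

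**Figure D5:**
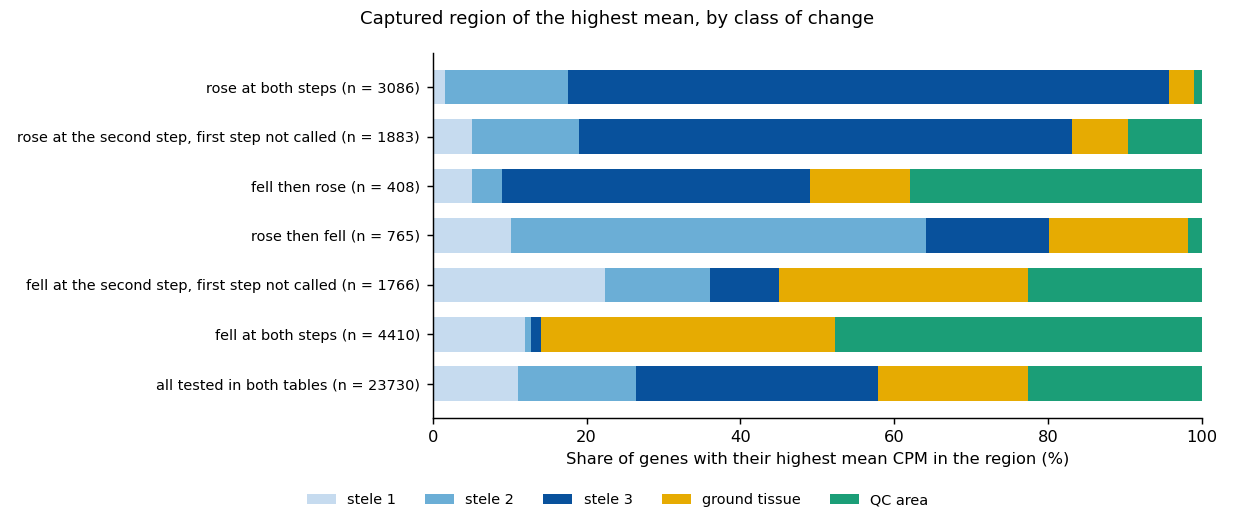
Share of genes, in percent, with their highest mean CPM in each captured region (colours), by class of change over the first and second axial step. Genes rising at both steps were highest in stele 3 for 78.1%, genes that rose and then fell were highest in stele 2 for 54.0%, and genes falling at both steps were highest in the QC area for 47.7%.

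Calls between captured regions were also counted for these classes. Of the tested genes that rose and then fell, 282 (36.9%) were higher in stele 1 than in the QC area, beside 8.42% of all tested genes. For ground tissue against the QC area, 174 of them (22.7%) were higher and 6 (0.784%) lower, beside 3.23% and 1.51% of all tested genes. For stele 3 against stele 2, 160 (20.9%) were lower and 7 (0.915%) higher, beside 9.16% and 3.85%. Of the genes that fell and then rose, 43 (10.5%) were lower in ground tissue than in the QC area and 6 (1.47%) were higher. In stele 3 against stele 2, 50 of them (12.3%) were higher and 8 (1.96%) lower. In stele 2 against stele 1 their shares, 10.5% higher and 7.11% lower, were near the 12.4% and 8.97% of all tested genes. The same classes were counted within lanes, a check chosen after seeing the data. In lane 8, 27.4% of the genes that rose and then fell were higher in ground tissue than in the QC area (3.51% of all tested genes), and 14.1% were higher in stele 1 than in the QC area (1.93% of all). There 15.2% of the genes that fell and then rose were lower in ground tissue than in the QC area (2.57% of all). In lane 7, 1.43% of the genes that rose and then fell were lower in stele 3 than in stele 2 (0.478% of all), and 0.461% of those that fell and then rose were higher (0.351% of all). Genes that fell at the second step without a call at the first were lower in stele 3 than in stele 2 for 282 of 1766 (16.0%, or 0.677% within lane 7), and lower in stele 2 than in stele 1 for 67 (3.79%), which is below the 8.97% of all tested genes.

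The named genes add their own levels. MA_73622g0010 had 2.34, 17.6, 32.4 and 26.8 CPM in stele 1 replicates 1 to 4, then 1.38, 0, 7.64 and 0 CPM in stele 2 and no count in stele 3, with 28.5 to 36.1 CPM in ground tissue and 28.3 to 45.3 CPM in the QC area. In stele 2 against stele 1 the log2 fold change was -3.12 ± 0.94 (SE, edgeR adjusted p = 0.0262). That call was lost without stele 1 replicate 3 or 4 or stele 2 replicate 1 or 2 (adjusted p of 0.0722, 0.0579, 0.0689 and 0.0510), and without stele 2 replicate 3 the value was -5.48. In stele 3 it was at least 16.5-fold below stele 2 (edgeR adjusted p = 0.0480), but 78 of the 90 counts of stele 2 lay in replicate 3. Without that library the bound was 2.98-fold and the adjusted p was 0.203, and the call was also lost without stele 2 replicate 1 or any stele 3 library (adjusted p of 0.0573 to 0.0938). MA_18731g0010 had 1.41, 3.86, 2.79 and 6.90 CPM in ground tissue replicates 1 to 4, against 25.5, 20.5, 19.3 and 19.6 CPM in the QC area. These did not overlap, and the log2 fold change was -2.49 ± 0.59 (SE, edgeR adjusted p = 0.0161). Without ground tissue replicate 1 or 3 the adjusted p was 0.0695 or 0.0599. In the steles it ranged from 1.86 CPM in a stele 2 library to 20.7 CPM in a stele 1 library, without a call between consecutive steles. MA_140859g0010 stayed between 0 and 8.15 CPM in all captured libraries and passed no captured comparison.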

How the data were processed

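RNA was sequenced from 40 Norway spruce root libraries. Per the labels' protocols, zone RNA came from a chloroform extraction followed by RNeasy columns and captured RNA from the RNAqueous-Micro kit, so no zone library was tested against a captured one. Trimmomatic, STAR and HTSeq were used per the submitters' processing notes. The sources used here name neither versions nor a genome build, gene models or strand handling, so overlapping genes and near-identical copies may share reads. The authors deposited raw counts per gene in 1 table per kind of library, each with 70736 IDs. Stele columns were matched to libraries by number and letter after the other columns had been named.

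Each table had its own fit in edgeR 4.0.16 (R 4.3.3, filterByExpr, TMM, glmQLFit and glmQLFTest with the group as the single term, Benjamini-Hochberg adjustment over all tested genes, threshold 0.05). This left 27767 zone genes and 27239 captured genes, 23730 of them in both. The first and second steps and their difference came from 1 fit of all 4 zones. The SE is the log2 fold change divided by the square root of F. CPM used TMM-scaled totals. Bounds used a floor of 3 counts over a group, and counting intervals are exact binomial at 95%. Both cover counting error only, since reads are not independent molecules. The procedure was tested on simulated counts.

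The comparison, its gene classes and the rule for the named genes were chosen with earlier results of these data known. That rule took 1 gene from each class called at both steps. Same-numbered libraries of zones 3 and 2 deviated together from their zone means (correlations of 0.122 to 0.336 across genes). Each library was closest to its own number. This did not hold for zones 2 and 1 (-0.0095 to 0.185) or for any captured pair. The meaning of a replicate number is not given in the labels. The main fits, with the group as the single term, did not pair libraries, so their p-values are unpaired. Pairing by number entered only through the replicate block, as an alternative. The alternatives were other scalings, no filter on low counts, only the compared groups, a replicate block, lane, DESeq2 1.42.0, members at 4-fold and leaving out each library. Counting the reversing classes within lanes and leaving out libraries for the named genes in captured comparisons were added after seeing the data.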

Additional observations from a re-analysis of the deposited data

Results flagged for a closer look

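Within groups of 4 or 5 libraries, the gap of a library to the nearest other was divided by the range of the group. A library was set apart where this ratio exceeded the 95% critical value of Dixon's test. The rule was applied to 49 groups of values and met in 8. Chance gives about 1 in 20, a rate that does not hold for the 3 groups of MA_12626g0010 below, where all other libraries were at 0. Zone 3 replicate 2 stood above the others for the share of counts of the zone 3-lower genes, with 5.29% against 3.49% to 3.85%. Stele 2 replicate 3 stood above the others for the same share, with 16.1% against 10.3% to 10.6%. MA_140859g0010 was at 39.95 CPM in zone 2 replicate 2, against 28.2 to 31.6 CPM. MA_73622g0010 was at 47.9 CPM in zone 1 replicate 4, against 39.7 to 40.9 CPM, and at 28.5 CPM in ground tissue replicate 4, against 35.7 to 36.1 CPM. MA_12626g0010 had its counts of 3 groups in 1 library each, 0.179 CPM in zone 1 replicate 2, 1.84 CPM in stele 2 replicate 1 and 1.70 CPM in stele 3 replicate 2.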

How the results depend on the processing

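The counts of genes higher, lower and changed 2-fold, and the 6 class counts, stayed within 1.5 times under each alternative. With only zones 2 and 3 in the fit, 5811 genes were higher and 5843 lower, and at 2-fold 2677 and 2192. With the replicate block, 7330 genes were higher and 7128 lower, and the block moved no other count by over 1.5 times except the zone 3-higher genes lower in stele 3 than in stele 2, at 0.217% of those tested against 0.347% without it. Leaving out a library gave 6802 to 7570 higher genes and 6407 to 7196 lower ones, and at 2-fold 3655 to 4198 and 2842 to 3444. The falls that became smaller numbered 127 with DESeq2-type size factors, 146 with DESeq2 and 44 with no filter, and 43 to 125 without a library. The rises that became larger numbered 96 with DESeq2 and 28 to 134 without a library, and the falls that became larger 312 to 638.

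Captured shares, in percent of tested members, moved by over 1.5 times as follows, with zone 3-higher genes called higher given as rises and zone 3-lower genes called lower as falls. All tested genes of the same fit are in brackets. With members at 4-fold, ground tissue against the QC area gave 1.60% rises [3.23%] and 1.61% falls [1.51%], stele 1 against the QC area 8.89% [8.42%] and 2.91% [1.03%], and stele 1 against ground tissue 9.91% rises [4.78%]. With no filter, rises were 2.57% [1.71%] for ground tissue against the QC area, 9.84% [3.86%] and 9.78% [2.42%] for stele 1 against the QC area and ground tissue, and 11.1% [1.63%] for stele 3 against stele 2. Stele 2 against stele 1 moved by less than 1.5 times with no filter, to 32.5% rises [6.94%] and 29.0% falls [3.76%]. With lane as a term, falls were 0.763% [0.576%] for stele 1 against the QC area and 24.1% [5.76%] for stele 2 against stele 1. With only the compared groups fitted, ground tissue against the QC area gave 8.77% rises [5.45%] and 5.08% falls [4.22%], and falls were 6.67% [2.91%] for stele 1 against the QC area, 4.29% [2.12%] for stele 1 against ground tissue, 20.6% [4.02%] for stele 2 against stele 1 and 13.5% [2.32%] for stele 3 against stele 2. DESeq2 gave 6.29% rises [4.67%] and 1.56% falls [2.71%] for ground tissue against the QC area, and 4.68% falls [2.65%] for stele 1 against the QC area. Within lane 8, ground tissue against the QC area gave 3.05% falls [2.57%], stele 1 against the QC area 3.46% rises [1.93%], and stele 1 against ground tissue 3.38% rises [0.960%] and 1.43% falls [0.441%]. Within lane 7, stele 1 against ground tissue gave 4.54% rises [1.11%] and 0.266% falls [0.0835%], stele 2 against stele 1 gave 11.8% [2.00%] and 0.999% [0.177%], and stele 3 against stele 2 gave 2.34% [0.351%] and 3.70% [0.478%].

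Without a library, rises and falls ranged from 2.35% to 3.41% and from 0.428% to 0.692% for ground tissue against the QC area, from 10.6% to 18.7% and from 0.591% to 2.40% for stele 1 against the QC area, and from 9.66% to 17.5% and from 1.51% to 3.22% for stele 1 against ground tissue. They ranged from 34.2% to 49.8% and from 24.4% to 43.4% for stele 2 against stele 1, and from 9.62% to 18.2% and from 24.4% to 42.7% for stele 3 against stele 2. Shares of all tested genes were not counted in these fits. The within-lane and left-out values rest on fewer libraries; for the other alternatives the cause was not tested. The spread between replicates, 48.2% in the captured libraries against 16.0% in the zone libraries, limits these shares.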

Other observations

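Among 1303 tested pairs of IDs that share the part before the letter g and carry consecutive numbers, both genes were called at the second step in 501 (38.4%). Of all tested genes taken singly, 52.0% were called, which is a share of genes and not a like measure for pairs. Where both genes of a pair were called, they changed in the same direction in 456 (91.0%), 242 pairs higher and 214 lower in zone 3. Over all called genes 50.4% were higher, and the share of pairs with the same direction was not counted for other pairs of genes. Whether such IDs share reads was not tested.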
